A study of Homo sapiens with 8 samples.

Results

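The regions described here are 4672 H3K27ac peaks that were higher in the crizotinib-resistant line erCriz0 than in naive H3122 cells and were not comparably higher in erAlec0 or erLor0, out of 126470 peaks in all. H3122 is a lung adenocarcinoma cell line driven by the EML4-ALK fusion. The groups were the treatment-naive line, erCriz0 maintained in 0.5 μM crizotinib, erAlec0 maintained in 2 μM alectinib and erLor0 maintained in 2 μM lorlatinib. All 3 resistant lines were derived from the naive line by stepwise dose escalation, and RNA was collected after 48 h without inhibitor. The ChIP-seq methods of the paper do not state whether inhibitor was present when chromatin was fixed. Each line gave 1 RNA library and 1 H3K27ac ChIP-seq library, so no difference between lines has a replicate check, and neither a p-value nor an SD is given. Each resistant line represents 1 selection, so differences between inhibitors and differences between separate selections cannot be told apart. The other 4 samples of the series, which include further resistant lines, a lorlatinib exposure and pooled input DNA, were not analysed here.

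H3K27ac, the acetylation of lysine 27 on histone H3, is laid down by the acetyltransferases p300 and CBP and marks active promoters and active enhancers. Enhancers are short stretches of regulatory DNA, often within introns or between genes, that bind transcription factors and raise transcription of a gene that may lie far away. In epithelial cells many enhancers are bound by AP-1, a dimer of FOS and JUN family proteins that lies downstream of growth factor receptors and the ERK pathway. Crizotinib, alectinib and lorlatinib inhibit the ALK kinase, and crizotinib also inhibits MET and ROS1.

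The sequences shown first are 300-base windows around the centres of 2 of these peaks and the promoters of SERPINB3 and SERPINB4, because AP-1 was, of 18 motifs searched, the one whose share in the set stood furthest in percentage points from that in all floor peaks and because these promoters carried 2 of the largest gains. The windows were picked because they hold the AP-1 letters TGANTCA, shown in capitals, and were read from hg38 on the forward strand. The first window lies at chr15:65954192-65954491 in an intron of MEGF11 and the second at chr21:21187616-21187915 in an intron of NCAM2.
MEGF11 intron: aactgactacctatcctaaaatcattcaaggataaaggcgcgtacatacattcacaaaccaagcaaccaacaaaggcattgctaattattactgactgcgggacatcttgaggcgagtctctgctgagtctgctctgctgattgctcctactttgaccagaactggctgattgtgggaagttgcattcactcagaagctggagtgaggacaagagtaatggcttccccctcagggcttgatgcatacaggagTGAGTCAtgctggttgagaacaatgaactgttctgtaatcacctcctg
NCAM2 intron: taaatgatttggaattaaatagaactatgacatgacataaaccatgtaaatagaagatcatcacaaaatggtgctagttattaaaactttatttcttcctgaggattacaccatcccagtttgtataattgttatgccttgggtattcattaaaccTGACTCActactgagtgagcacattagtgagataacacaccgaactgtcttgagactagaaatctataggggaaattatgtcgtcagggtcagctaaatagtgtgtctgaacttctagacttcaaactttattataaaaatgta
H3K27ac at the MEGF11 peak was 4.50 in naive cells, 7.82 in the erCriz0 line, 4.50 in erAlec0 and 4.64 in erLor0, as rlog values, which are on a log2 scale. The NCAM2 peak was at 2.98, 4.72, 3.02 and 2.35 in the same order. At both peaks the erCriz0 library was the highest of the 4, which the choice of the peaks, given below, fixes.

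SERPINB3 and SERPINB4 encode closely related serpins, inhibitors of serine and cysteine proteases. Their promoters were taken from RefSeq on GRCh38.p14, as the 250 bases before the start on the minus strand, at chr18:63661894-63662143 and chr18:63644257-63644506. Capitals mark the 3 positions at which they differ, with 247 of 250 positions, 98.8%, identical.
SERPINB3 promoter: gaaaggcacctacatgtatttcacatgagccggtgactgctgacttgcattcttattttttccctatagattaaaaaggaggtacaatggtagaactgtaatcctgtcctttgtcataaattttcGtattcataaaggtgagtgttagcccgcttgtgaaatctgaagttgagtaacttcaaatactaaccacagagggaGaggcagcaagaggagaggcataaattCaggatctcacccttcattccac
SERPINB4 promoter: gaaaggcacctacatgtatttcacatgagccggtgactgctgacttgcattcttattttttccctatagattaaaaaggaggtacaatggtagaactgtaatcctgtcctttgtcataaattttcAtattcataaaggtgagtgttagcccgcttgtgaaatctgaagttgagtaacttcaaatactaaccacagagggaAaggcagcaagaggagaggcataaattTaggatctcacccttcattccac
The SERPINB3 promoter peak had H3K27ac levels of 5.94 in naive H3122, with erCriz0 at 9.21, erAlec0 at 5.06 and erLor0 at 5.17. The SERPINB4 promoter peak had levels of 6.53, 9.69, 5.98 and 5.74. Because these genes are near-identical copies, the split of reads between them is uncertain for both assays.

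The 4672 peaks were chosen on 4 limits. The rlog difference between erCriz0 and naive cells, called the change below, had to be at least 1, which is a 2-fold difference on that scale. The changes in erAlec0 and erLor0 had to be under 0.5, and the erCriz0 level had to be at least 3.91, called the floor. Of 8858 peaks with a change of at least 1 in erCriz0, 7096 were at the floor. These were 10.6% of the 66706 peaks at the floor. Of these, 5290 had an erAlec0 change under 0.5, and 4672 passed the erLor0 limit too. The members nearest the limits had an erCriz0 change of 1.00001, an erAlec0 change of 0.49982, an erLor0 change of 0.499974 and an erCriz0 level of 3.9101, and the nearest peaks outside were at 0.999954, 0.50038, 0.500208 and 3.90967. The H3K27ac values of the members, in this and every other paragraph, served to choose the peaks and are therefore descriptions.

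The members had a median H3K27ac level of 4.75 in naive cells, 6.22 in the erCriz0 line, 4.42 in erAlec0 and 4.41 in erLor0. Their median change in erCriz0 was 1.32, with 366 at 2 or more, 15 at 3 or more and a maximum of 3.70. The choice only capped the other lines at 0.5, and within that cap 2737 members, 58.6%, were below naive cells in both erAlec0 and erLor0, against 39.5% of all floor peaks, on which no cap was set. A fall of at least 1 occurred at 9.42% of the members in erAlec0, 8.73% in erLor0 and 5.14% in both, near the 9.78%, 8.48% and 5.69% of all floor peaks. The naive level was under the floor at 1495 members, 32.0% and at or above it at the others. Median peak length was 1314.5 bp, against 1178 bp for all peaks at the floor.

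**Figure D1:**
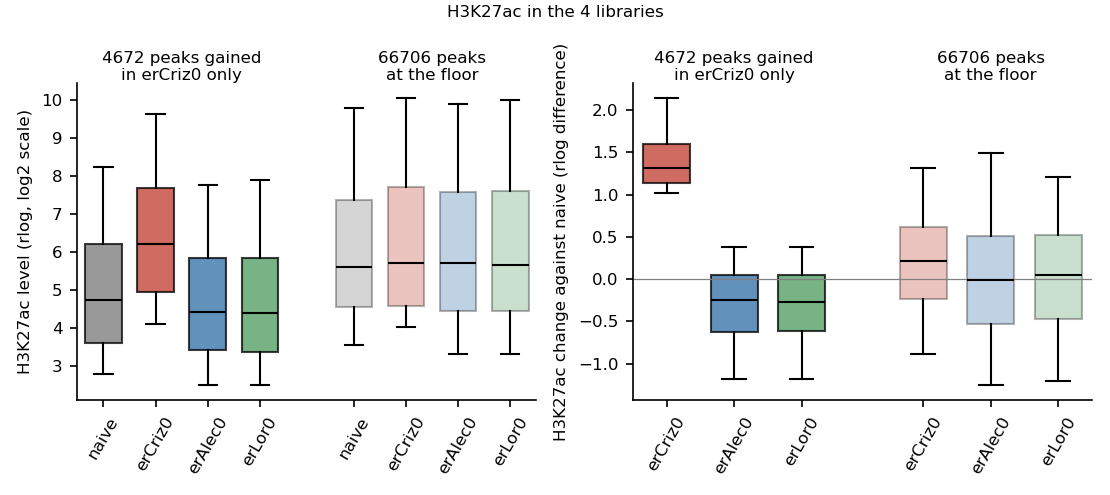
H3K27ac levels (left, rlog, log2 scale) and changes from naive cells (right, rlog difference) of the peaks gained in erCriz0 only and of all peaks at the floor. Boxes span the 25th to 75th percentile with the median as a line, and whiskers the 5th to 95th percentile over peaks. The gained peaks have a median of 6.22 in erCriz0 and of 4.41 to 4.75 in the other libraries, a pattern that their choice fixes.

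Position was not used in the choice. Relative to GENCODE genes, 612 members, 13.1%, lay within 1 kb of a start of a basic transcript of a coding or long noncoding gene, which is here called a promoter (95% Wilson interval 12.2 to 14.1, over peaks). Of all peaks at the floor, 27.8% were promoter peaks. Introns held 60.7% of the members against 49.6% of the floor peaks, stretches between genes 20.8% against 16.3%, and exons 5.42% against 6.34%. Peaks gained in erAlec0 only, chosen by the same limits with the lines exchanged, were at promoters in 6.51% of 3519 cases. Of the 350 peaks gained by at least 1 in all 3 lines, 43.4% were at promoters. Of the 2424 other floor peaks gained by at least 1 in erCriz0, which failed a limit in erAlec0 or erLor0, 31.6% were at promoters. The members were thus mostly outside promoters.

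Many members lay near another. Of the 4672, 2505, or 53.6%, had another member within 50 kb, against 59.3% among the peaks gained in erAlec0 only 15.7% among the much smaller set gained in all lines and 38.9% among the 2424 other peaks gained in erCriz0. Counted along the floor peaks, 2335 members, 49.98%, stood in a run of 2 or more neighbouring members with no other floor peak between. There were 62 runs of 5 or more, with 400 members. Runs were counted for the members only, so these counts have no background from another set. Members of a run can be parts of 1 broad stretch of signal, so they do not count separate elements. At KCNT1, for example, a member ended at chr9:135752782 and the next began at chr9:135752865. The longest runs each held 16 members. One spanned 99.3 kb of MYT1 (chr20:64133850-64233152), a zinc finger gene of neural cells, and the other 31.7 kb at KCNT1 (chr9:135767142-135798793), which encodes a sodium-activated potassium channel. A further run of 15 covered another stretch of KCNT1, 14 lay around PKDCC, a secreted kinase of skeletal development that was paired with 11 of them, and 12 lay at the immunoglobulin heavy chain constant genes. The latter are near-identical copies, so the place of reads among them is uncertain. Runs of 10 at TENM4, 9 at TSHZ2, 9 at PRSS2 and 8 at OSBPL5 followed.

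**Figure D2:**
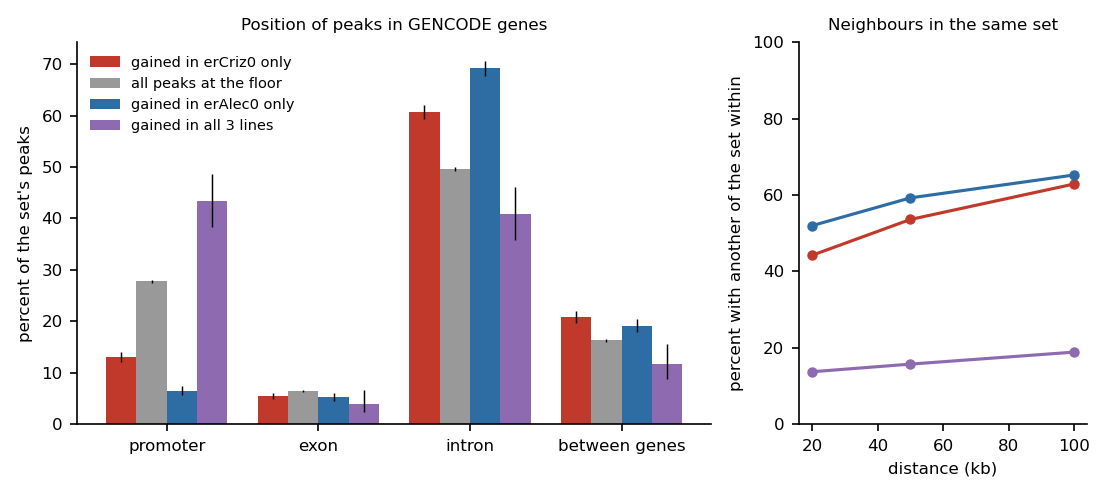
Left, percent of each set's peaks at promoters, in exons, in introns and between genes, with 95% Wilson intervals over peaks as bars. Right, percent of each set with another peak of that set within 20, 50 or 100 kb. The erCriz0-only peaks are at promoters in 13.1% of cases and have a near neighbour in 53.6% at 50 kb.

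Across chromosomes the share of floor peaks that were members was 7.004% in all and ranged from 2.90% on chromosome 19 to 11.1% on chromosome 18, apart from chromosome Y with 0 members among 2 floor peaks. In bins of 2 Mb, 1137 of 1428 held a member, and 82 bins with 10 or more held 1135 members, 24.3%. The densest bin, at 28 to 30 Mb of chromosome 2, had 39 members among 122 floor peaks. It contains PLB1, a phospholipase gene with 17 members, and ALK with 5, and its median change over all its peaks in erCriz0 was 0.87. The bin at 42 to 44 Mb, with PKDCC and EML4, had 23 members among 125 floor peaks and a median of 0.29. Other dense bins were those of KCNT1 (34 of 145, median 0.19), MAPKAP1 (28 of 128, median 0.28), PDE4B (21 of 54, median 0.63), the SERPINB cluster (20 of 63, median 0.77) and MYT1 (20 of 56, median 0.34). The bin at 104 to 106 Mb of chromosome 14 had 34 of 173 and a median of 0.076. It holds the immunoglobulin constant genes, where the place of reads is uncertain.

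These medians include the members, whose choice raises them. Without the members the medians were 0.63 for the PLB1 and ALK bin, 0.61 for the SERPINB bin, 0.48 for the PDE4B bin, 0.17 for the PKDCC and EML4 bin, 0.16 for the MAPKAP1 bin, 0.044 for the KCNT1 bin and 0.049 for the MYT1 bin. Signal was thus higher across the other peaks too in the first 3, and hardly in the last 2. In the chromosome 14 bin the median without the members was 0. Bins in which the peaks other than members had a median change of at least 0.5 held 299 members, 6.40%, and 1.70% of all floor peaks. Of the members, 4000, 85.6%, kept a change of at least 1 after subtraction of the median of the peaks within 5 Mb. At the members these regional medians had a median of only 0.036, so the choice of the members largely fixed this share. They include neighbouring members and do not resolve gains narrower than the window. DNA copy number moves such medians and was not tested here.

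The 10 largest changes were spread over 9 chromosomes. The peak with the largest change, 3.70, lay in an intron of GPR39 (chr2:132561692-132565425), which encodes a zinc-sensing receptor. Its levels were 4.63 in naive H3122, with erCriz0 at 8.34, erAlec0 at 4.59 and erLor0 at 4.64. GPR39 RNA was low, at 3.38, 3.70, 3.79 and 4.29 in that order, and was highest in erLor0. The promoter peak of CHST1 (chr11:45665721-45682014), a keratan sulfate sulfotransferase, was at 8.50, 11.7, 8.24 and 8.68. CHST1 RNA was at 3.80, 4.85, 4.80 and 4.35, so that it was higher by about as much in erAlec0 as in erCriz0. A peak between genes (chr1:25192273-25201893) was at 7.07, 10.4, 6.77 and 6.84, and one in an intron of MEPE, a bone matrix gene, at 3.95, 7.08, 3.54 and 3.36. MEGF11 RNA was 2.77 in naive cells and 2.64 in erCriz0, both under the level of 4.64 used below for expressed genes. The change of 3.32 in H3K27ac in its intron thus stood beside RNA too low to compare between lines. Among the 10 largest, SERPINB3 and SERPINB4 were the genes whose RNA was also higher by more than 2 in erCriz0, as given below.

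RNA is a separate measurement that took no part in the choice. The table paired 5852 genes with a member within 20 kb. Of these, 2010 were listed at 0 in all libraries and 1909 were expressed, with an RNA level of at least 4.64 in 1 or more libraries. Of the 1909, 144 (7.54%) were up in erCriz0 by at least 1, against a background of 2.63% of 12562 expressed genes paired with any floor peak. The share down by at least 1 was 1.52%, against 1.61%. The median RNA change was 0.085, against -0.02 for all 12562 genes, and 57.4% of the paired genes were higher in erCriz0, against 47.9%. Most paired genes therefore had no RNA change of this size, and the share up was above the background while the share down was near it. In such bulk libraries, more cells that express a gene and more RNA per cell cannot be told apart.

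In erAlec0, 3.25% of the same 1909 genes were up and 2.36% down, against backgrounds of 2.44% and 2.06%. In erLor0, 1.15% were up and 1.83% down, against 1.1% and 0.732%. The RNA comparisons of the 3 lines share the naive library. Read from the RNA side, 43.6% of the 330 genes up in erCriz0 had a member, against 14.4% of the 202 genes down and 14.4% of the 12030 others. In erAlec0, 20.3% of the genes up, 17.4% of those down and 15.0% of the others had a member. In erLor0 this was 15.9% of the genes up, 38.04% of the 92 genes down and 15.02% of the others.

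The share of genes up in erCriz0 was 1.75% of the 10653 genes with none, 5.80% with 1 member, 6.61% with 2, 16.9% with 3 or 4 and 19.5% of the 77 genes with 5 or more. In erAlec0, where these peaks were not gained, it was 2.29%, 2.48%, 3.31%, 5.65% and 10.4% in the same order, so that higher shares with more members were not particular to erCriz0. In erLor0 it was between 0.929% and 2.60%. Of the 77 genes, 7 (9.09%) were down in erCriz0, and 7 were down in each of the other lines too. Of 244 genes with a member at their own promoter, 23.8% were up and 4.51% down. Of the 1665 genes with members elsewhere only, 5.17% were up and 1.08% down. In erLor0, 0.820% of the own-promoter genes were up and 6.56% down. Paired genes had more floor peaks, with a median of 7 against 4. Among genes with 5 or more floor peaks, 7.10% of those with a member were up, against 2.99% of all.

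**Figure D3:**
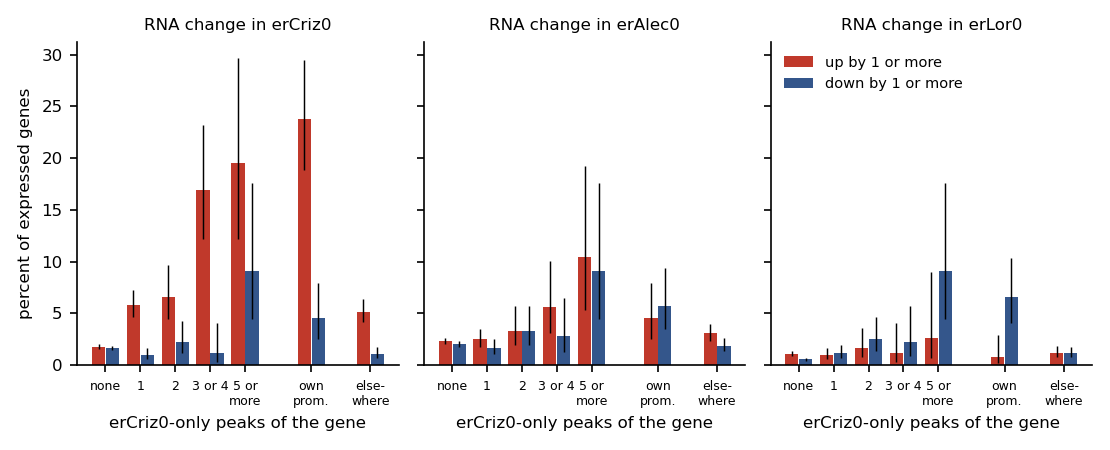
Percent of expressed genes whose RNA was up (red) or down (blue) by at least 1 on the rlog scale in each resistant line, by the number of erCriz0-only peaks paired with the gene and, at the right of each panel, by whether 1 of them lay at the gene's own promoter. Bars carry 95% Wilson intervals over genes, which do not cover variation between libraries. In erCriz0 the share up goes from 1.75% with no such peak to 19.5% with 5 or more.

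SLC34A2, which encodes the sodium-phosphate cotransporter of alveolar type 2 cells, had the largest RNA rise among the paired genes. Its RNA was at 6.30 in naive cells, 11.9 in the erCriz0 line, 7.37 in erAlec0 and 6.76 in erLor0. It had 2 members among 10 floor peaks, with changes of 1.21 and 1.33. Its other floor peaks failed a limit of the choice but may still have been higher in erCriz0. SERPINB4 RNA was at 4.37, 9.95, 5.14 and 4.53, and SERPINB3 RNA at 3.72, 8.67, 4.32 and 3.88. SERPINB3 had 5 members among 6 floor peaks and SERPINB4 3 of 4. The median change of peaks within 5 Mb was 0.49 to 0.55 at these peaks. PLAT, tissue plasminogen activator, was at 7.11, 11.2, 9.18 and 7.45, highest in erCriz0 and next in erAlec0.

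NCAM2 and NTNG1 had members at all of their floor peaks and large RNA rises. NCAM2, an immunoglobulin-family adhesion molecule, had members at 5 of 5 floor peaks. The promoter peak at chr21:20996527-20998259 had levels of 5.50 in naive H3122, with erCriz0 at 7.81, erAlec0 at 5.81 and erLor0 at 5.59. NCAM2 RNA was at 4.49, 7.32, 4.53 and 4.59, with the naive, erAlec0 and erLor0 libraries within 0.10 of each other. NTNG1, the axon guidance ligand netrin-G1, had members at 4 of 4, the largest of them in an intron (chr1:107249202-107250984) at 3.98, 6.69, 2.86 and 3.20. NTNG1 RNA was at 5.30, 8.08, 5.22 and 5.29. For both genes the RNA difference was seen in erCriz0 and in neither other line.

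Other large RNA rises were those of TMPRSS11D, SPRR1B, PDZK1IP1 and SOCS2. TMPRSS11D, an airway serine protease, had its only floor peak as a member, with a change of 1.93, and its RNA was at 3.29 in naive cells, 6.39 in the erCriz0 line, 4.09 in erAlec0 and 3.40 in erLor0. SPRR1B, a cornified envelope protein of squamous cells, was at 4.85, 7.65, 6.55 and 5.18, with a member at its promoter that changed by 1.46. RNA of PDZK1IP1, a small membrane protein that binds PDZ domains, was at 2.91, 5.80, 3.12 and 3.08 beside members at 3 of 7 peaks. SOCS2, a feedback inhibitor of cytokine signalling, was at 4.88, 7.96, 6.67 and 5.60 with 1 member of 5. PDZK1IP1 was higher by at least 1 in erCriz0 alone, whereas SOCS2 and SPRR1B were also higher by more than 1 in erAlec0, where their members were not. KCNQ3, a voltage-gated potassium channel, lay in one of the 10 densest bins, with 9 members of 13 floor peaks and RNA at 5.98, 8.53, 7.05 and 6.21.

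**Figure D4:**
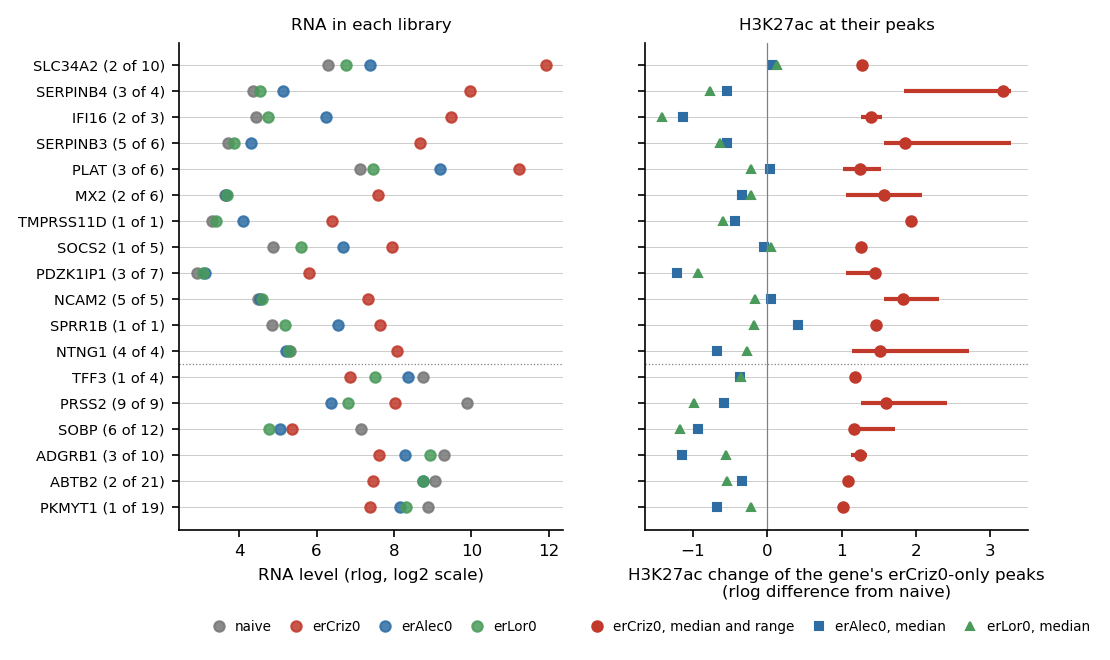
The 12 largest RNA rises and 6 largest RNA falls in erCriz0 among expressed genes paired with an erCriz0-only peak. Left, RNA in each library (rlog, log2 scale), with the number of such peaks and of all floor peaks beside each symbol. Right, H3K27ac change of those peaks, as the median and range in erCriz0 and the median in erAlec0 and erLor0. The upper 12 genes have their highest RNA in erCriz0, and the lower 6 have lower RNA than naive cells although their peaks were chosen as gained.

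RNA went the other way at 29 paired genes. PRSS2, a trypsinogen, had members at 9 of 9 floor peaks, with changes of 1.25 to 2.42. The peak at its promoter (chr7:142759494-142761766) had levels of 4.70 in naive H3122, with erCriz0 at 7.13, erAlec0 at 4.23 and erLor0 at 3.65. PRSS2 RNA was at 9.88, 8.02, 6.37 and 6.81, so it was lower than in naive cells in all 3 lines and least so in erCriz0. Reads of PRSS2 and its near-identical copy PRSS1, which shares 7 of these members, cannot be assigned with certainty. SOBP had 6 members of 12 and RNA at 7.16, 5.38, 5.06 and 4.78, also lower in all 3 lines and least so in erCriz0. For both genes the median changes of the members were below 0 in erAlec0 and erLor0, at -0.59 and -0.99 for PRSS2 and at -0.93 and -1.18 for SOBP.

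TFF3, a secreted trefoil peptide of mucosal epithelium, had the largest RNA fall. It was at 8.76 in naive cells, 6.86 in the erCriz0 line, 8.36 in erAlec0 and 7.51 in erLor0, with 1 member of 4 floor peaks. ADGRB1, an adhesion G protein-coupled receptor, was at 9.29, 7.61, 8.30 and 8.93 with 3 members of 10. ABTB2 was at 9.05, 7.46, 8.74 and 8.76 with 2 of 21, and PKMYT1, a kinase that inhibits CDK1, at 8.89, 7.38, 8.16 and 8.30 with 1 of 19. These 4 genes were lowest in erCriz0, and members were a minority of their peaks.

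The genes with the most members were not those with the largest RNA changes. KCNT1 had 32 members among 34 floor peaks, with changes of 1.04 to 2.74, yet its RNA was low and close between lines, at 3.02 in naive H3122, with erCriz0 at 3.15, erAlec0 at 3.18 and erLor0 at 2.84. MYT1 had 20 of 34, and its RNA was at 9.06, 7.96, 7.87 and 7.54, lower in every resistant line. MAPKAP1, a subunit of the mTORC2 kinase complex, had 19 of 38 and RNA at 10.5, 10.9, 10.3 and 10.4. The member changes thus covered most of KCNT1 and MYT1 while their RNA was not higher by 1 in erCriz0.

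PLB1 had 17 of 39 with an RNA change of 0.74, and CAMK1D, a calcium/calmodulin-dependent kinase, 15 of 37 with -0.46. TRAPPC9, a vesicle trafficking subunit, and MACROD2 had 14 each, with RNA changes of -0.12 and 0.32. TSHZ2, a zinc finger factor, had 13 of 18 and RNA at 7.44 in naive cells, 8.72 in the erCriz0 line, 7.57 in erAlec0 and 7.23 in erLor0. TENM4, a teneurin adhesion protein, had 13 of 32 with an RNA change of 0.996. PTPRN2, a phosphatase-like protein of secretory granules, had 11 of 31 with 0.31, and PKDCC had 11 of 11 with 0.81. Among these 11 genes, TSHZ2 alone was up by at least 1 in erCriz0, and MYT1 alone was down by at least 1.

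Of 15 gene lists examined, the interferon-stimulated genes had the most paired genes up. Of the 5 expressed genes of that list with a member, 4 were up and 0 down, with a median RNA change of 1.47, against -0.02 over all expressed genes. IFI16, a nuclear DNA sensor, was at 4.44 in naive H3122, with erCriz0 at 9.46, erAlec0 at 6.23 and erLor0 at 4.75. Its 2 members had changes of 1.25 and 1.54 in erCriz0, and a median of -1.13 in erAlec0. MX2, an antiviral GTPase, was at 3.63, 7.59, 3.65 and 3.69, with a promoter member (chr21:41361068-41364513) at 5.76, 7.84, 5.53 and 5.52. IFIT3 had members at 3 of 3 peaks and RNA at 4.01, 5.48, 3.68 and 3.71, and its neighbour IFIT2 RNA at 3.88, 5.29, 3.74 and 4.13. IFIT2 shares 1 of the IFIT3 members. The fifth gene, IRF1, a transcription factor of the interferon response, changed by 0.66. Of all 18 expressed genes of the list, with or without a member, 8 were up.

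Among matrix and integrin genes, 3 of 7 expressed genes with a member were up and 0 down, with a median change of 0.78, and 6 of all 26 expressed genes of the list were up. TNC, the matrix protein tenascin-C, was at 9.42 in naive cells, 11.5 in the erCriz0 line, 9.53 in erAlec0 and 9.49 in erLor0, with a promoter member that changed by 1.24. ITGA1, a collagen-binding integrin subunit, was at 7.91, 9.79, 7.99 and 7.48, and ITGB3 at 5.30, 6.78, 5.83 and 5.12. COL4A2, a basement membrane collagen, had 6 members of 23 but an RNA change of -0.07 in erCriz0, against 1.49 in erAlec0. Of the axon guidance list, 2 of 8 with a member were up and 1 down, with a median of 0.49, against 3 up and 2 down of all 23 expressed genes of the list. NTN4 was at 9.17, 10.8, 10.3 and 9.49, NRP2, a semaphorin and VEGF co-receptor, at 7.55, 8.77, 7.23 and 6.53, and PLXND1 at 9.78, 8.44, 9.35 and 9.62.

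In the lists of ERK output and receptor tyrosine kinases few genes with a member had an RNA change, whereas ALK itself was up by 2.47. Of the ERK output and feedback genes, 5 of 18 had a member, against 1909 of the 12562 expressed genes paired with a floor peak. Of the 5, 0 were up or down, with a median of 0.06. Of all 18, 1 was up. ETV5, an ETS factor induced by ERK, had 3 members of 6 and RNA of 10.1, 9.90, 10.1 and 10.2. Of the receptor tyrosine kinases, 4 expressed genes had a member and EGFR was the 1 up, at 10.8 in naive H3122, with erCriz0 at 11.9, erAlec0 at 11.7 and erLor0 at 11.5, with 3 members of 18. Of all 17 expressed kinases of the list, 2 were up. ALK RNA was at 8.18, 10.6, 9.58 and 8.10 with 5 members of 26, in the bin with a median change of 0.87. EML4 was at 12.3, 13.2, 12.6 and 12.4 with 7 of 38. For ALK and EML4 together, 12 of 64 pairs with floor peaks, 18.75%, were with a member, where 7.004% of all floor peaks were members.

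Of the STAT3 targets, SOCS3 was up with 1 member, at 8.21 in naive cells, 10.5 in the erCriz0 line, 9.45 in erAlec0 and 8.56 in erLor0, among 2 expressed genes with a member. Of all 11 expressed STAT3 targets, 4 were up. In the TGF-beta and BMP list TGFBR2, a TGF-beta receptor, was the only expressed gene with a member, with an RNA change of 1.10. Of all 19 expressed genes of that list, 3 were up and 4 down. The drug transporters had 2 expressed genes with a member, of which SLCO4A1 was up by 1.02. Of all 7 expressed drug transporters, 2 were up. Of the alveolar lineage genes, SLC34A2 was up and ETV5 was not, and SFTPB, with members at 2 of 3 peaks, had RNA of 1.64 to 2.03 in the 4 libraries. Across that list, 1 of 11 expressed genes was up.

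In 5 lists no expressed gene with a member was up or down. None of the 163 pairs of epithelial junction genes with floor peaks was with a member. Of all floor peaks 7.004% were members, a share counted per peak and not per pair. In the EMT list, 1 expressed gene had a member, and its change was -0.32, whereas 7 of the 11 expressed genes of that list were up. The WNT list had 5 expressed genes with a member and a median of -0.20, with LRP5, a WNT co-receptor, at -0.29. Of all its 21 expressed genes, 1 was up. The ERK list is given above, and the inflammatory cytokines and chemokines had 0 expressed genes with a member. RNA of the epithelial markers EPCAM and CDH1 was at 11.4 to 12.6 in all 4 libraries, that of the lung marker NKX2-1 at 8.67 to 9.18, and the leukocyte marker PTPRC was listed at 0. The surfactant gene SFTPB and the lung marker NAPSA, at 3.53 to 4.23, were low.

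An AP-1 motif, TGANTCA, which reads the same on both strands, stood in the central 300 bp of 845 members, 18.1%, against 10.3% of all floor peaks. It was in 9.72% of the peaks gained in erAlec0 only and in 7.71% of those gained in all lines. Outside promoters the share was 18.9% of the members against 11.9% of floor peaks, and at promoters 12.6% against 6.16%. In the peaks gained in erAlec0 only and in all lines the share outside promoters was 9.70% and 11.6%. Among floor peaks outside promoters, members included, it was 9.16% at a fall of more than 1 in erCriz0. It was 11.8% at changes of 0 to 0.5 and 20.2% at changes of 2 or more. Of the 425 floor peaks with changes of 2 or more, 326 were members, so that share is largely the members' own. The members stood at 18.1% for changes of 1 to 1.5, 19.7% for 1.5 to 2 and 23.3% for 2 or more. The MEGF11 and NCAM2 windows printed above are examples of such matches, of which each holds 1.

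**Figure D5:**
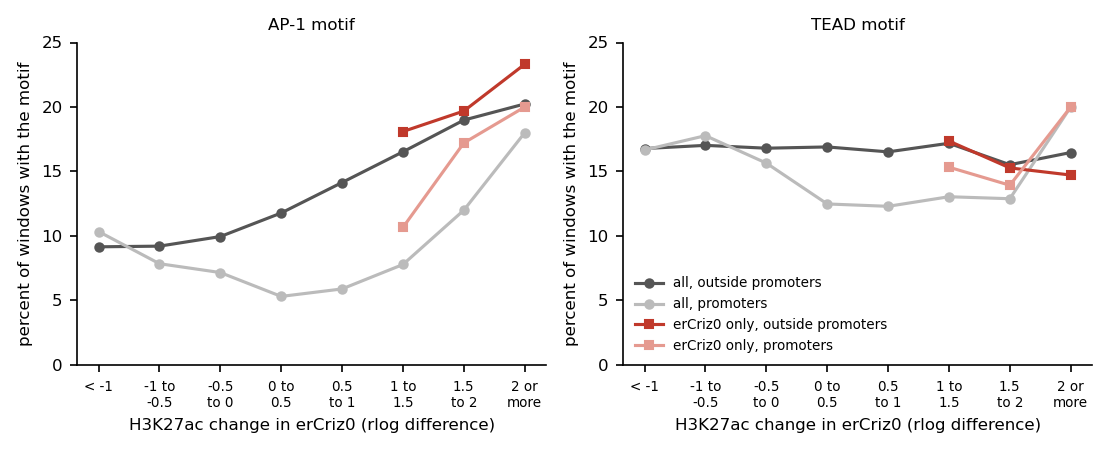
Percent of 300 bp windows with the AP-1 motif (left) and the TEAD motif (right), by the H3K27ac change in erCriz0 (rlog difference), for all peaks at the floor (grey) and the erCriz0-only peaks (red), outside and at promoters. Over all floor peaks, which include the erCriz0-only peaks, the AP-1 share outside promoters goes from 9.16% to 20.2% with the change. At changes of 2 or more, 326 of the 425 floor peaks outside promoters are erCriz0-only peaks. The TEAD share outside promoters lies between 15.5% and 17.2% over all floor peaks and between 14.7% and 17.4% in the erCriz0-only peaks.

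Of 18 motifs searched on both strands, with overlaps between motifs allowed, others differed less in percentage points. The IRF motif were in 5.84% of the members against 3.85% of floor peaks, the RUNX letters TGTGGTT in 7.56% against 5.28%, and the SOX letters ACAAAGG in 7.21% against 5.59%. Outside promoters these shares were 5.94% against 4.18% for IRF, 7.61% against 5.85% for RUNX and 7.34% against 5.94% for SOX. For TEAD, NKX2 and ETS the comparison depended on the promoter share. The TEAD letters GGAATG were in 16.5% against 15.8% over all peaks but in 16.6% against 16.8% outside promoters. The NKX2 letters CACTTGA were in 6.13% against 7.77% outside promoters and in 6.70% against 4.01% at promoters. The ETS letters CCGGAAG, which hold a CpG, were in 1.54% against 2.94% over all peaks and in 1.38% against 1.56% outside promoters. Median GC content was 46.3% in the members and 49.7% in all floor peaks, and the part of base composition in these shares was not tested. A match is a description of the sequence and not of binding.

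The genes of the AP-1 proteins themselves did not move together. FOSL2 RNA was at 10.2 in naive H3122, with erCriz0 at 11.5, erAlec0 at 10.5 and erLor0 at 10.4, with 1 member among 17 floor peaks. JUN had 2 members of 7 and RNA of 9.28, 9.61, 9.57 and 9.44. JUND, at 8.98, 8.11, 9.57 and 9.001, and FOSB, at 8.41, 7.70, 8.72 and 8.66, were lowest in erCriz0 and had 0 members. ATF3 had 2 members of 5, and its RNA was at 8.43, 8.06, 9.34 and 9.03, also lowest in erCriz0. TEAD1 of the same list had 2 members of 22 and an RNA change of 0.63. FOSL2 was thus the 1 gene up by at least 1 among the 4 expressed genes of the AP-1 and Hippo list with a member. Of all 19 expressed genes of the list, 2 were up.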

How the data were processed

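H3K27ac ChIP-seq and RNA-seq of 4 cell lines were analysed from 1 deposited table with a row for each peak and gene within 20 kb. The authors aligned 75 nt ChIP reads to hg38 with BWA, removed duplicates, required unique hits of mapping quality 25 or more, used MACS2 for peaks at a q-value of 0.05, merged peaks of the samples and counted reads with featureCounts. RNA reads were aligned with HISAT2 and counted with HTSeq-count. Tool versions were not given in the sources used here. The authors deposited rlog values, which they made with DESeq2, on a log2 scale. The rlog draws features with few reads toward their mean and so understates their changes. Depth is therefore unknown, and no input subtraction is stated for these values. The authors' correlation r for each pair, with its p-value and adjusted p-value, and their means were not used.

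Changes are differences from naive cells. The floor of 3.91 is log2 of 15 reads and the minimum gene level of 4.64 is log2 of 25 reads, the read minimums of the study's methods. Positions came from GENCODE release 44, in which 43641 of the 43869 gene identifiers of the table were found. Regional values are medians of the peaks within 5 Mb or in 2 Mb bins. Wilson intervals, at 95%, are over peaks or genes and cover counting error only. They treat peaks as independent, although many members lay side by side, so they are likely too narrow. No test was run, because each line has 1 library per assay. The members, gene lists and motifs were chosen with earlier results of these data known. Named are the 10 members with the largest change, the 10 coding genes with most members (with 1 tie), the 10 densest bins with their leading genes, the 12 largest RNA rises and 6 largest falls, genes of the lists with 2 or more members or with 1 member and an RNA change of at least 1, the members nearest each limit and the AP-1 genes. Of these the text prints the values the results turn on. Longest runs and the RNA of genes at the largest peaks were named after their values were seen. The sequence of 1 further window is not reported here. Other settings are given in the closing section. Scripts were tested on simulated data. The work was done in Python 3.11.15 with pandas 2.3.3, numpy 2.4.6, matplotlib 3.10.9 and scipy 1.17.1.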

Additional observations from a re-analysis of the deposited data

Results flagged for a closer look

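NRP2, which is paired with 2 of the erCriz0-only peaks, had an RNA change of 1.22 in erCriz0 and of -1.02 in erLor0, so the lines moved in opposite directions by at least 1. Each line has 1 library, the 2 changes share the naive library, and the difference was not tested.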

How the results depend on the processing

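Of 65 values recomputed under other settings, 23 stayed within 1.5 times (counts) or within the 95% interval (shares and medians) and 42 moved. The set held 1509 peaks at a rise of 1.5, 2737 with other lines capped at 0, and 2163 and 2509 in the parts of the table written with at most 6 and with more decimals. The promoter share was 11.5% within 500 bp of a start, 10.7% at a rise of 1.5, 11.4% with no floor and 9.35% by peak centre, a setting added after seeing the data. The share with a neighbour was 44.2% at 20 kb, 62.9% at 100 kb and 52.2% at 50 kb outside bins with a median change of 0.5 or more. Genes up in erCriz0 were 17.4% (down 6.23%) at an RNA limit of 1.5-fold, 1.78% (down 0%) at 2, 2.68% (down 0.496%) with no filter on low genes, 10.4% where the peak overlapped the gene, 9.70% within 5 kb, 10.3% for peaks paired with 1 gene, 11.2% (down 2.76%) with 2 or more members, 17.7% (down 3.54%) with 3 or more, 11.7% at a rise of 1.5 and 6.42% outside those bins. In these settings the share up among all genes tested ranged from 0.478% to 7.55% and was below that of the paired genes in each. The median RNA change was 0 with no filter, 0.11 by overlap, 0.11 within 5 kb, 0.18 for peaks with 1 gene, 0.14 with RNA centred, 0.15 and 0.21 with 2 and 3 members, 0.18 at a rise of 1.5, and 0.11 and 0.062 in the 2 parts of the table. AP-1 windows were 12.3% at 200 bp, 30.0% at 500 bp and 20.3% at a rise of 1.5, and TEAD windows 11.002%, 26.8% and 15.2%. Floor peaks had AP-1 in 7.03% and 16.9% of windows of 200 and 500 bp. No paired analysis was possible because the groups compared share 1 replicate number and each has 1 library. Depth is unknown, and low peaks are understated by the rlog shrinkage.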
